A study of Mus musculus with 8 samples.

Results

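Stroma 1 is 1 of 10 cell types to which the authors assigned the nuclei of the mouse iris, and the subject here is how its transcripts differed between irises held dilated and irises left untreated. The nuclei carrying the authors' stroma 1 label were taken as they stand, and their unique molecular identifiers (UMIs) were summed per library over all genes. These were 1777 of the 25392 nuclei in the 5 libraries compared, 485 from the 2 dilated libraries and 1292 from the 3 untreated libraries, and 2315 of 34357 nuclei over all 8 libraries. Another 3 libraries, with 538 stroma 1 nuclei, came from constricted irises.

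All groups were wild-type female albino mice aged 6 to 8 weeks, and the iris was dissected along with a part of the ciliary body that varied. Dilated mice received 5% phenylephrine, an adrenergic agonist, with 1% cyclopentolate, a muscarinic antagonist, each hour for 6 h in the dark. Constricted mice received 5% pilocarpine, a muscarinic agonist, each hour in the light, and untreated mice received nothing. Nuclei were prepared 30 min after the last drop, each library from its own pool of 5 or 6 irises. The drugs, the darkness and the change in shape therefore came together and cannot be told apart. The libraries were handled in 5 batches and 2 sequencing runs that are not matched to single libraries in the sources used here. A count summed over the nuclei of a cell type measures transcripts relative to all transcripts in those nuclei, and fewer cells of one kind and less RNA per cell cannot be told apart in it.

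The iris stroma holds cells of neural crest origin, among them melanocytes, which express the transcription factors SOX10, PAX3 and MITF and the enzymes that make melanin. Albino mice lack pigment because tyrosinase does not work, and their melanocytes remain in place. When the dilator muscle contracts, the stroma is folded and compressed toward the iris root, and when the pupil closes it is stretched. Among the pathways followed here, cyclic nucleotides are second messengers that phosphodiesterases such as PDE10A break down, receptor tyrosine kinases such as TRKC (the product of Ntrk3) carry growth factor signals, and AP-1 is a transcription factor assembled from JUN and FOS proteins within minutes to hours of a stimulus.

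The label was checked against its markers. A UMI of Sox10 or Pax3 was found in 94.3% to 100% of the stroma 1 nuclei of each library, and the 15 stroma 1 marker genes summed to between 39605 and 40765 counts per 1000000 UMIs (CPM) in the untreated libraries and 44035 and 46299 CPM in the dilated libraries. The constricted libraries, at 41496 to 45586 CPM, also lay above all untreated ones, and their range overlapped that of the dilated ones. Defining transcripts of the iris muscles, pigment epithelium, stroma 2, endothelium and leukocytes were scarce. No markers of the ciliary body or its epithelium were examined. The summed markers of dilator muscle, sphincter muscle, pigment epithelium, stroma 2, endothelium and leukocytes reached between 0.223% and 2.70% of their level in those cell types themselves in the 5 libraries compared. In both dilated libraries Nptx2 (sphincter), Cd74 and C1qa (leukocytes), Icam2 (endothelium), Mag (myelinating Schwann cells) and Kcnj8 (pericytes) were at 0. They were picked from their lists for this, and most members of each list had UMIs in the dilated libraries. The 7 Schwann cell markers summed to 683 to 777 CPM untreated and 704 to 782 CPM dilated. These sums were higher than those of any other cell type's list apart from stroma 1, and no Schwann cell level was available to set beside them. The 5 pericyte markers differed, with 12.3 to 23.3 CPM untreated and 31.7 to 54.3 CPM dilated, and Cspg4, the only one of the 5 that passed the filter on low counts, is among the genes called higher below. It was at 17.9, 13.9 and 8.63 CPM untreated, 30.9, 12.9 and 19.3 CPM constricted and 45.9 and 30.0 CPM dilated (log2 fold change 1.61 ± 0.38, SE, edgeR adjusted p = 0.0446), so that 1 constricted library exceeded the second dilated one. Its call was lost without untreated replicate 2 or 3 or either dilated library (up to 0.338), and the part of the pericyte markers in the other differences was not tested.

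Stroma 1 made up 12.2%, 8.14% and 9.12% of the nuclei in the untreated libraries and 3.44% and 6.29% in the dilated libraries. The groups did not overlap, with 4.86% ± 2.01 (SD, n = 2) in the dilated libraries and 9.81% ± 2.10 (SD, n = 3) in the untreated libraries, and the exact permutation test gave p = 0.1, the smallest value that 2 against 3 libraries allow. The constricted libraries, at 5.41%, 7.77% and 6.07%, also lay below all untreated ones, and dilated replicate 2 lay within their range. A lower share was thus not particular to dilation. The share also depends on how much of the other tissues each pool held. The summed UMIs of stroma 1 ranged from 557516 to 1622919 in the untreated libraries and were 718677 and 599778 in the dilated libraries, so that a transcript at 1 CPM gave about 1 UMI per library. Median UMIs per stroma 1 nucleus were 3113, 2624 and 2678 untreated and 2815.5 and 2492 dilated, ranges that overlap (exact permutation p = 0.7). The mean share of mitochondrial transcripts was 0.0421% to 0.0481% untreated and 0.0842% and 0.0682% dilated, and its part in the differences was not tested.

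Of 8911 genes with enough counts to test, 104 (1.17%) were called different between dilated and untreated stroma 1 by edgeR's quasi-likelihood test, at an adjusted p under 0.05 and an absolute log2 fold change above 0.6, in a fit with condition as its only term. Dilated libraries were higher for 70 of them (0.786% of the genes tested) and lower for 34 (0.382%), and the median log2 fold change over all genes tested was 0.01. The 104 genes had 30 or more UMIs. In each of them the 2 dilated libraries lay outside the range of the 3 untreated ones, which choosing genes by a low p largely builds in. Just inside the threshold were Nedd4l, Gdnf and Iars, at adjusted p values of 0.0488, 0.0491 and 0.0491, and just outside it Onecut2 and Rpl10, at 0.0508 each. To be tested a gene needed 16.9 CPM in at least 2 libraries, and 6 of the 70 genes that rose, among them Tnfrsf12a, Lgals3, Hes1, Ddx21 and Higd1a, met this only through the dilated libraries, so that a difference in them was in part built into the filter.

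The library numbers in the labels run from 2 to 4 and from 13 to 18, and each run holds libraries of all 3 groups. What the numbers stand for is not given. With a term for these 2 series, an alternative chosen after seeing the data, 250 genes were called, 154 higher and 96 lower, all 104 among them. With 13 as a series of its own, which takes constricted replicate 2 out of the estimate, there were 390 calls, 236 higher and 154 lower.

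The number of calls also depended on single libraries, since 18 were made without untreated replicate 3, 29 without untreated replicate 2, 46 without dilated replicate 1 and 24 without dilated replicate 2, against 130 without untreated replicate 1. Leaving out a dilated library leaves 1, which is then assumed to vary like the libraries of the other groups. Of the 130 calls without untreated replicate 1, 90 were among the 104. Statements below on single genes with 1 library left out refer to these 5 fits, and not to fits without a constricted library. Only 11 of the 104 genes were called in each of these 5 fits, and all 11 were higher in the dilated libraries. They were Ntrk3, Mettl1, Pde10a, Bcl2l1, Cpm, Cd44, Adam12, Prickle2, Mthfd1l, Ctsb and 1 unnamed gene model.

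**Figure D1:**
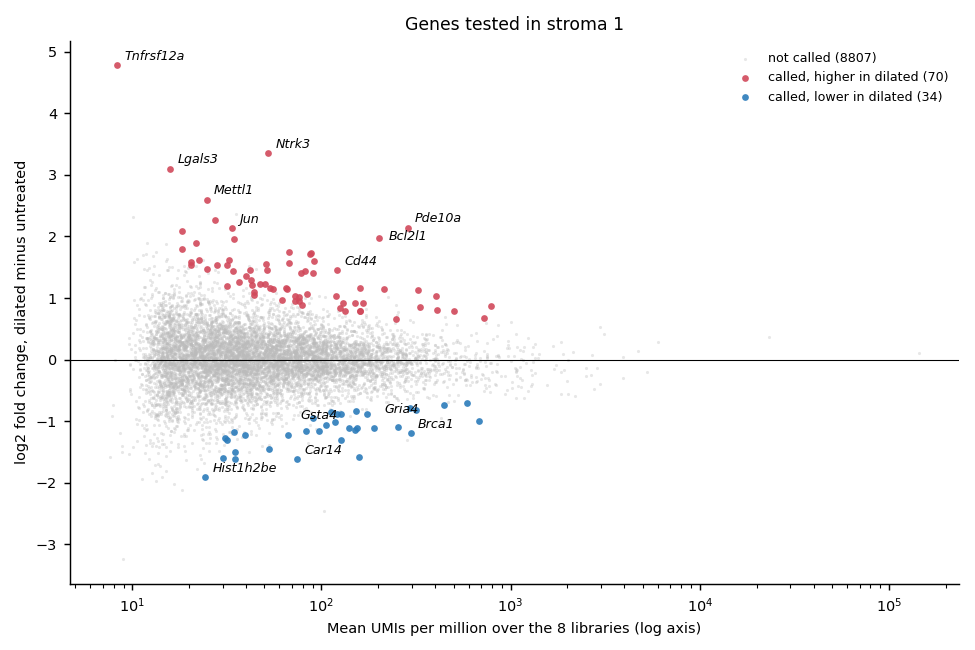
Log2 fold change of dilated against untreated stroma 1 (vertical axis) against the mean CPM over the 8 libraries (horizontal log axis), 1 point per gene tested. The 70 red points are genes called higher and the 34 blue points genes called lower in the dilated libraries, among 8807 grey points that were not called. The called genes lie over a wide range of levels, and the red points farthest up include genes with few UMIs such as Tnfrsf12a and Lgals3.

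Promoter sequence was available for 50 of the 70 genes that rose, 22 of the 34 that fell and 6853 of the 8911 genes tested, as 300 bases from 250 before to 50 after a start site (RefSeq, GRCm38.p6). Motifs were searched on both strands, and TGACG is contained in TGACGTCA. The full cyclic AMP response element TGACGTCA occurred in 2% of the genes that rose, none of those that fell and 3.58% of all genes tested, and its short form TGACG in 34%, 31.8% and 37.0%. The AP-1 site TGANTCA occurred in none of the genes that rose, in 4.55% of those that fell and in 5.78% of all, and the E-box CACGTG in 14%, none and 12%. The glucocorticoid response element (consensus form, searched with its 3 free middle bases) occurred in neither called group and in 0.0146% of all genes. A match is a string of letters and not a site in use, and the absence of a match concerns only these windows. Shown are the promoters of Mettl1 at chr10:127041682-127041981 on the plus strand, with the short form (read on the other strand) and the E-box in capitals, of the downstream start of Pde10a at chr17:8849735-8850034 on the plus strand, and of Jun at chr4:95052173-95052472 on the minus strand, because these genes are described next. The windows of Pde10a and Jun hold no exact match to any of the 5 motifs. Near matches were not searched. The Jun window holds tgacatca and the Pde10a window holds tgatgtca, each a single base away from TGACGTCA.
Mettl1: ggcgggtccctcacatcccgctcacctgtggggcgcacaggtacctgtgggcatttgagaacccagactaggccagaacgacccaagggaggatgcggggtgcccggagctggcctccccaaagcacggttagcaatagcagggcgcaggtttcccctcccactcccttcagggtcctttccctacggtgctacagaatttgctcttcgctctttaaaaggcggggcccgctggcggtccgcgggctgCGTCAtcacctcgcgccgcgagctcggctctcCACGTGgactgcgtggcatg
Pde10a: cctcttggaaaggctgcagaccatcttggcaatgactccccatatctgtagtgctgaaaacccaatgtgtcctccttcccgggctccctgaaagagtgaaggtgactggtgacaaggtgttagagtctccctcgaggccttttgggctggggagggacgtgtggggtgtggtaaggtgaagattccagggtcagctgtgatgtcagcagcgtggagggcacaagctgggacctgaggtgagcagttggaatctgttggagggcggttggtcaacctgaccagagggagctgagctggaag
Jun: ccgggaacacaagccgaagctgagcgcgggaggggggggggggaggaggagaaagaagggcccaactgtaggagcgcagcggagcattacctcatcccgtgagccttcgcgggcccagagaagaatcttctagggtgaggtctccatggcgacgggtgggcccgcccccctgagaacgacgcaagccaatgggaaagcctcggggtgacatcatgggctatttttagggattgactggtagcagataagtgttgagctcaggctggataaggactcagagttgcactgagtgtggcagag

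Pde10a, which encodes a phosphodiesterase that hydrolyses both cAMP and cGMP, rose in both dilated libraries. It lies on chromosome 17 at 8525372 to 8986648 of mm10. Its level in stroma 1 was 190.1, 183 and 88.1 CPM in the untreated libraries, 125, 214 and 177 CPM in the constricted libraries and 774 and 540.2 CPM in the dilated libraries. Both dilated libraries were more than 2 times above the highest of the other 6. The log2 fold change was 2.14 ± 0.25 (SE), or 4.41-fold, with an adjusted p of 0.000191 in edgeR's test, and the highest adjusted p with 1 library left out was 0.00231. Pde10a was the only 1 of 11 phosphodiesterase genes tested that was called, the other 10 having log2 fold changes from -0.47 (Pde1c) to 1.03 (Pde6a). Pde10a was also higher in dilated libraries in dilator muscle, by a log2 fold change of 6.30 ± 0.26 (SE). At the level of its own markers in stroma 1, dilator RNA would amount to 35.2 and 19.1 CPM of Pde10a in the dilated libraries and 0.3 to 0.5 CPM in the untreated ones. No such estimate was made for the ciliary body, where Pde10a was at 633, 558 and 527 CPM untreated and 3485 and 990 CPM dilated.

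Ntrk3, the receptor for neurotrophin 3, had the lowest adjusted p of all genes. It was at 10.8, 19.0 and 12.3 CPM untreated, 39.5, 28.4 and 9.63 CPM constricted and 179 and 120.0 CPM dilated, so that the lowest dilated library was several times the highest of the others. The log2 fold change was 3.35 ± 0.32 (SE), or 10.2-fold, with an adjusted p of 2.19e-05 (edgeR) that stayed at or under 0.000963 with any 1 library left out. Ntrk3 is also expressed in stroma 2, whose RNA at the level of stroma 2 markers would amount to 7.90 and 4.99 CPM in the dilated and 3.05 to 4.63 CPM in the untreated libraries. None of the other 4 neurotrophin pathway genes tested was called. Bcl2l1, which encodes the anti-apoptotic protein BCL-XL, was at 147, 72.5 and 96.7 CPM untreated, 148, 173 and 202 CPM constricted and 295 and 484 CPM dilated. Its dilated libraries were the highest 2 of 8, and the log2 fold change of 1.97 ± 0.25 (SE), or 3.92-fold, had an adjusted p of 0.000302 (highest with 1 library left out, 0.00787). Among the 8 BCL2 family genes tested it was the only one called, while Bcl2 (0.56), Mcl1 (0.57) and the pro-apoptotic Bcl2l11 (-0.92) were not. The median log2 fold change of the family was 0.28.

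**Figure D2:**
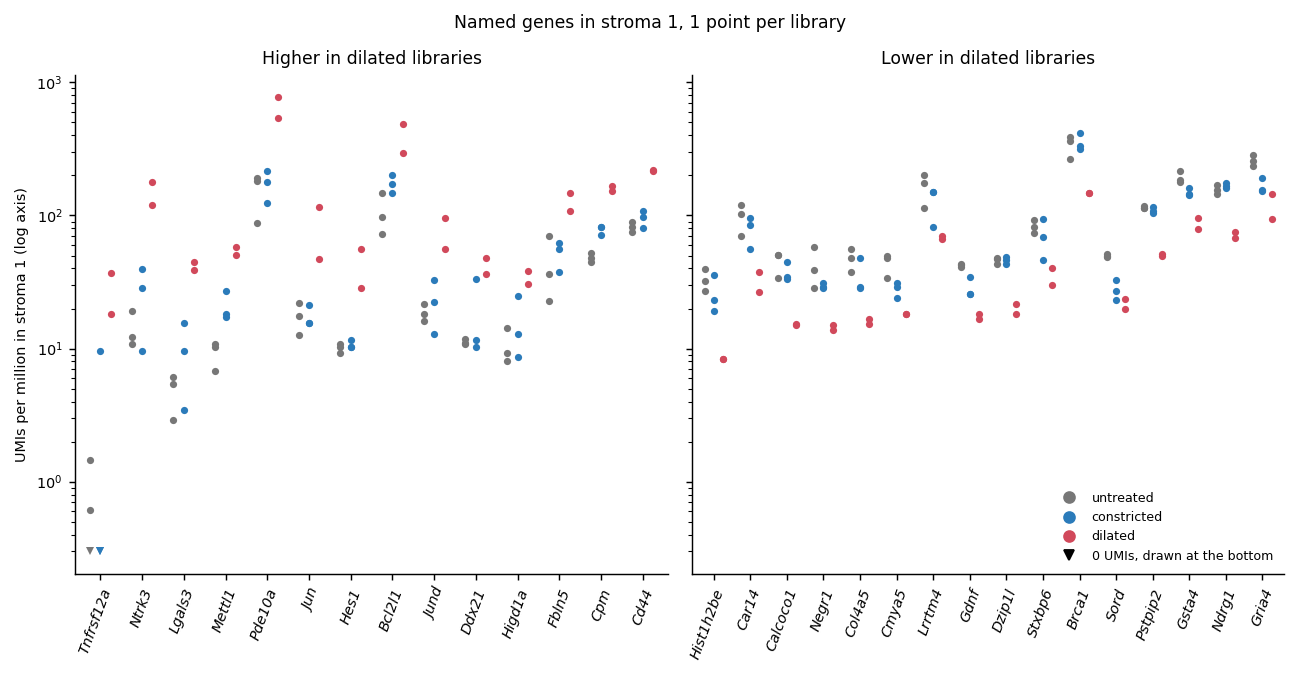
CPM in stroma 1 (log axis) for the 14 named genes called higher (left) and the 16 called lower (right) in the dilated libraries, 1 point per library, with untreated in grey, constricted in blue and dilated in red. Triangles at the bottom are libraries with 0 UMIs. The red points lie outside the range of the grey points for each gene, and the blue points lie nearer to the grey ones for Pde10a and Cd44 than for Bcl2l1, Cpm or Sord.

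Genes of the immediate early response were represented by Jun, Jund and Dusp6. Jun, a subunit of AP-1, was at 12.6, 17.6 and 22.2 CPM untreated, 15.4, 15.5 and 21.2 CPM constricted and 47.3 and 117 CPM dilated. It rose by a log2 fold change of 2.13 ± 0.35 (SE, adjusted p = 0.00442). Jund, another AP-1 subunit, was at 16.1, 18.3 and 21.6 CPM untreated and 55.7 and 95 CPM dilated, a log2 fold change of 1.96 ± 0.32 (SE, adjusted p = 0.00357). Both rested on dilated replicate 2, the higher of the 2 libraries, without which the adjusted p was 0.211 for Jun and 0.134 for Jund. Dusp6, a phosphatase that switches off ERK, rose from 19.7, 20.5 and 11.7 CPM to 36.2 and 56.7 CPM (log2 fold change 1.47 ± 0.34, SE, adjusted p = 0.0403), a call lost without untreated replicate 2 (0.0812), untreated replicate 3 (0.261) or dilated replicate 2 (0.381).

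Of 33 immediate early genes listed, 12 had enough counts to test, of which 3 rose and none fell (0.786% and 0.382% of all genes tested did), and their median log2 fold change was 0.90 against 0.01 over all genes tested. Junb was not called, at 16.1, 19.0 and 13.6 CPM untreated and 19.5 and 81.7 CPM dilated (1.62, adjusted p = 0.0837), and here the first dilated library lay next to the untreated ones. Fos was too low to test, with 2 UMIs in 3546394 untreated and 28 in 1318455 dilated, a ratio of 37.7 with a 95% interval of 9.50 to 326 that covers counting error only. Per library these were 1.79, 0.732 and 0 CPM untreated and 9.74 and 35.0 CPM dilated. Dilated replicate 2 was thus the higher library for Jun, Jund, Junb, Fos and Dusp6. Hes1, a transcriptional repressor downstream of Notch, went the other way between the dilated libraries, with 10.8, 10.2 and 9.24 CPM untreated and 55.7 and 28.3 CPM dilated (2.08 ± 0.37, SE, adjusted p = 0.00731), and lost its call without untreated replicate 3 (0.0833) or dilated replicate 1 (0.286).

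Of 25 matrix and adhesion genes tested, 7 rose and none fell, against 0.786% and 0.382% of all genes tested. Like the other lists, this one was chosen with earlier results of these data known. It leaves out the collagen gene Col4a5 and the adhesion genes Negr1 and Ntm, which were called lower (below). A log2 fold change above 0 was found for 20 of the 25, against 4540 of all 8911, and the median was 0.39, against 0.01. Cd44, the hyaluronan receptor of the cell surface, was at 89.7, 81.3 and 74.6 CPM untreated, 97.8, 108 and 80.9 CPM constricted and 217 and 220.1 CPM dilated. The dilated libraries were close to each other and at least 2 times any other library, and the log2 fold change was 1.45 ± 0.17 (SE, adjusted p = 0.000191). Cpm, a carboxypeptidase anchored to the membrane, was at 44.8, 47.6 and 52.4 CPM untreated, 82.3, 82.6 and 71.3 CPM constricted and 166 and 153 CPM dilated, with a log2 fold change of 1.71 ± 0.19 (SE, adjusted p = 0.000103). Its constricted libraries lay between the other groups (0.69, not called). Adam12, a membrane metalloprotease, rose from 52.0, 54.9 and 40.1 CPM to 138 and 147 CPM (1.56 ± 0.23, SE, adjusted p = 0.00131). These 3 genes were called in each of the 5 fits with 1 library left out.

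The other 4 matrix genes varied more between libraries. Fbln5, a glycoprotein of elastic fibres, was at 69.95, 22.7 and 36.4 CPM untreated and 109 and 148 CPM dilated (1.74 ± 0.31, SE, adjusted p = 0.00817), and its call was lost without untreated replicate 2 (0.0529), untreated replicate 3 (0.0885) or dilated replicate 2 (0.134). Itga4, the alpha 4 integrin, was at 86.1, 41.7 and 37.6 CPM untreated and 160.0 and 110.0 CPM dilated (adjusted p = 0.00925; 0.0608 without untreated replicate 2, 0.112 without untreated replicate 3 and 0.128 without dilated replicate 1). Untreated replicate 1 was the highest untreated library for both. The protease Adamts1, at 86.1, 41.7 and 53.0 CPM untreated and 96.0 and 203 CPM dilated, rose by 1.41 ± 0.31 (SE) on the log2 scale and had an adjusted p of 0.0315, but 0.148, 0.179 and 0.468 without untreated replicate 2, untreated replicate 3 and dilated replicate 2. Sparc, a matrix protein that binds collagen, was at 50.2, 66.6 and 53.0 CPM untreated and 122 and 108 CPM dilated (1.02 ± 0.21, SE, adjusted p = 0.0206; 0.17, 0.14 and 0.127 without untreated replicate 3, dilated replicate 1 and dilated replicate 2). Thbs1, which encodes thrombospondin 1, had a larger difference but was not called (1.87, adjusted p = 0.079).

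Tnfrsf12a, the receptor of the cytokine TWEAK, was called on very few counts (adjusted p = 0.0106) and is one of the genes that passed the filter only through the dilated libraries. It had 0, 1.46 and 0.616 CPM untreated, 0, 0 and 9.63 CPM constricted and 18.1 and 36.7 CPM dilated, that is 3 UMIs untreated against 35 dilated, a ratio of 31.4 with a 95% counting interval of 9.89 to 159. Its call was lost without untreated replicate 3 (0.102) or dilated replicate 2 (0.257). Lgals3, the carbohydrate-binding protein galectin 3, was at 5.38, 2.93 and 6.16 CPM untreated and 39.0 and 45.0 CPM dilated (3.1 ± 0.48, SE, adjusted p = 0.00213; 0.0823 without dilated replicate 2). Tnfrsf12a was the only 1 of 22 genes called in a list of SRF and YAP targets, sensors and regulators, which had a median log2 fold change of 0.11. Of the 34 genes listed, Ccn1, Ccn2 and Ankrd1 had no row under these names and were not examined. Of 20 genes of the cytoskeleton, motors and cell polarity tested, the planar polarity gene Prickle2 alone was called, at 278, 256 and 241 CPM untreated, 273, 238 and 209.9 CPM constricted and 582 and 530.2 CPM dilated (1.13 ± 0.15, SE, adjusted p = 0.000646).

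Mettl1, the methyltransferase that places 7-methylguanosine in tRNA, was at 10.8, 10.2 and 6.78 CPM untreated, 17.2, 18.1 and 27.0 CPM constricted and 50.1 and 58.4 CPM dilated. The log2 fold change was 2.60 ± 0.34 (SE), or 6.06-fold, with an adjusted p of 0.000617 (highest with 1 library left out, 0.0135). Ddx21, a helicase of rRNA processing, was at 10.8, 11.0 and 11.7 CPM untreated and 36.2 and 48.4 CPM dilated (1.90 ± 0.40, SE, adjusted p = 0.0244), and Higd1a, a mitochondrial protein induced by hypoxia, at 14.3, 8.05 and 9.24 CPM untreated and 30.6 and 38.3 CPM dilated (1.80 ± 0.42, SE, adjusted p = 0.0422). The calls of both were lost without untreated replicate 2 or 3 or either dilated library, with adjusted p values of up to 0.24 and 0.298.

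Mthfd1l, an enzyme of mitochondrial folate metabolism, was at 86.1, 52.0 and 33.3 CPM untreated and 189 and 157 CPM dilated (1.74 ± 0.25, SE, adjusted p = 0.00131). It was the only 1 of 13 genes called in the list of ATF4 targets and amino acid metabolism, in which 11 of 13 lay above 0 and the median log2 fold change was 0.59. Ctsb, a lysosomal protease, was at 91.5, 108 and 108 CPM untreated, 185, 134 and 183 CPM constricted and 224 and 238 CPM dilated (1.16 ± 0.18, SE, adjusted p = 0.00213). The constricted libraries were again in between, and Ctsb was the only 1 of 28 lysosomal genes called. Ribosomal protein genes, a list chosen after values had been seen, were summed at 3105, 3100.4 and 3335 CPM untreated, 3026, 2384 and 4229 CPM constricted and 4596 and 4507 CPM dilated. Of 69 tested, 67 lay above 0 with a median log2 fold change of 0.53, and 2 were called, Rpl12 and Rpl10a. These genes have many near-identical pseudogenes, so that their counts are uncertain, and the dilated libraries and constricted replicate 3 were those with the highest mitochondrial share.

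Gria4, a subunit of AMPA glutamate receptors, was at 237, 255 and 285 CPM untreated, 190.4, 152 and 156 CPM constricted and 146 and 93.4 CPM dilated. It fell by 1.10 on the log2 scale (SE 0.19), or 2.15-fold, with an adjusted p of 0.00665. The constricted libraries were also all below the untreated ones (-0.63, not called), and the call for dilation was lost without untreated replicate 3 (0.0592) or dilated replicate 2 (0.151). It was the only 1 of 13 glutamate and GABA receptor genes called, 3 of which lay above 0, and their median log2 fold change was -0.26. Of 26 genes of synaptic adhesion and axon contact, 4 fell and 1 rose, against 0.382% and 0.786% of all genes tested, with 8 of the 26 above 0 and a median of -0.19.

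The 4 that fell were Negr1, Ntm, Lrrtm4 and Stxbp5l. Lrrtm4, a synaptic organiser with leucine-rich repeats, was at 115, 176 and 203 CPM untreated and 69.6 and 66.7 CPM dilated (-1.30 ± 0.26, SE, adjusted p = 0.0198). Negr1 and Ntm belong to one family of GPI-anchored adhesion molecules. In stroma 2 the mean of Negr1 was 392.9 CPM untreated and 226.9 CPM dilated. The markers of stroma 2 stood in stroma 1 at 1.15% to 1.82% of their own level untreated and at 1.88% and 1.15% dilated. The part of such RNA in the fall of Negr1 in stroma 1 was not tested. In stroma 1 Negr1 was at 28.7, 38.8 and 57.9 CPM untreated and 13.9 and 15 CPM dilated (-1.59 ± 0.37, SE, adjusted p = 0.0371), and Ntm at 800.0, 729.9 and 978 CPM untreated and 379.9 and 445 CPM dilated (-1.0 ± 0.21, SE, adjusted p = 0.0244). These 3 calls were lost without untreated replicate 2 or 3 or either dilated library, with adjusted p values of up to 0.154, 0.261 and 0.233. Stxbp5l, an inhibitor of vesicle fusion, was at 253, 342 and 356 CPM untreated and 179 and 117 CPM dilated (-1.10 ± 0.21, SE, adjusted p = 0.0113; 0.0529, 0.0896 and 0.192 without untreated replicate 2, untreated replicate 3 and dilated replicate 2). The member that rose was Lrrc4, a relative of Lrrtm4, at 95.1, 156 and 152 CPM untreated, 199, 274 and 218 CPM constricted and 406 and 207 CPM dilated (1.15 ± 0.24, SE, adjusted p = 0.0206). Its second dilated library lay below 2 of the constricted ones, and the call was lost without untreated replicate 3 (0.0885) or dilated replicate 1 (0.373).

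Brca1, a component of DNA repair, was at 264, 360.2 and 387 CPM untreated, 415, 333 and 316 CPM constricted and 147 and 148 CPM dilated, a decrease by 1.19 on the log2 scale (SE 0.20, adjusted p = 0.00517). The dilated libraries were nearly equal and below all others, but without untreated replicate 3, dilated replicate 1 or dilated replicate 2 the adjusted p was 0.0526, 0.0681 and 0.0627. Its mean level in the other 9 cell types was 4.96 to 18.9 CPM untreated, against 336.9 ± 64.8 CPM (SD, n = 3) in stroma 1. It was the only 1 of 12 DNA repair and cell cycle genes called. Gsta4, a glutathione transferase that clears products of lipid peroxidation, was at 178, 215 and 185 CPM untreated, 142, 145 and 159.8 CPM constricted and 79.3 and 95 CPM dilated (-1.14 ± 0.19, SE, adjusted p = 0.00573; 0.111 without dilated replicate 1). Ndrg1, a gene induced by hypoxia and differentiation, was at 154, 169 and 145 CPM untreated, 166, 160.1 and 175 CPM constricted and 68.2 and 75.0 CPM dilated (-1.11 ± 0.19, SE, adjusted p = 0.00577; 0.107 without dilated replicate 1). Pstpip2, an adaptor protein of the actin cortex, was at 113, 113 and 118 CPM untreated and 51.5 and 50.0 CPM dilated (-1.17 ± 0.20, SE, adjusted p = 0.00665). Its dilated libraries were nearly equal, and its call was lost without untreated replicate 3 (0.0592), dilated replicate 1 (0.0853) or dilated replicate 2 (0.0857).

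The other 9 named genes that fell had log2 fold changes from -1.91 to -1.18 and are of mixed function. Hist1h2be, a replication-type histone gene, was the lowest, at 39.5, 27.1 and 32.0 CPM untreated and 8.35 and 8.34 CPM dilated (-1.91 ± 0.42, SE, adjusted p = 0.0293). Car14, a carbonic anhydrase, was at 69.95, 119 and 102 CPM untreated and 37.6 and 26.7 CPM dilated (-1.62 ± 0.30, SE, adjusted p = 0.00944). Gdnf, the glial cell line-derived neurotrophic factor, was at 41.3, 42.5 and 43.1 CPM untreated, 25.7, 25.8 and 34.7 CPM constricted and 18.1 and 16.7 CPM dilated (-1.27 ± 0.31, SE, adjusted p = 0.0491). All 8 libraries of Gdnf kept the order untreated, constricted, dilated. Sord, which oxidises sorbitol to fructose, kept the same order of groups except for 1 constricted library, at 48.4, 49.8 and 51.8 CPM untreated, 32.6, 23.2 and 27.0 CPM constricted and 23.7 and 20.0 CPM dilated (-1.18 ± 0.28, SE, adjusted p = 0.0438). Col4a5, a collagen IV chain of basement membranes, was at 55.6, 37.3 and 48.1 CPM untreated and 15.3 and 16.7 CPM dilated (-1.51 ± 0.34, SE, adjusted p = 0.0321). Its mean untreated and dilated levels were far higher in dilator muscle (667.2 and 325.8 CPM) and stroma 2 (435.8 and 453.8 CPM). In stroma 1 the markers of dilator muscle stood at 1.82% to 1.99% of their own level untreated and at 2.70% and 1.43% dilated. Those of stroma 2 stood at 1.15% to 1.82% untreated and at 1.88% and 1.15% dilated. At these shares, RNA of both cell types would not be small beside the Col4a5 level of stroma 1. Its part in the fall was not tested. The remaining 4 were Calcoco1 (-1.61), Cmya5 (-1.31), Dzip1l (-1.23) and Stxbp6 (-1.22), with adjusted p values of 0.0201 to 0.0488. All 9 of these calls were lost without untreated replicate 2 or 3 or either dilated library, with adjusted p values of up to 0.301 (Dzip1l), and that of Gdnf was also lost without untreated replicate 1 (0.0514).

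Nr3c2, the mineralocorticoid receptor, also fell. It was at 334, 323 and 338 CPM untreated, 322, 331 and 329 CPM constricted and 213 and 168 CPM dilated (-0.78 ± 0.16, SE, adjusted p = 0.0206), a call lost without untreated replicate 2 or 3 or either dilated library (up to 0.23). It was the only 1 of 12 glucocorticoid-responsive genes and receptors called. Their median log2 fold change, 0.98, was the highest of all lists with 5 or more genes tested, but the libraries within a group differed widely. Fkbp5, a chaperone partner of the glucocorticoid receptor, was at 35.9, 8.79 and 8.63 CPM untreated, 5.15, 2.58 and 77.0 CPM constricted and 39.0 and 107 CPM dilated (2.37 ± 0.69, SE, adjusted p = 0.0993). Constricted replicate 3 was thus above dilated replicate 1, and untreated replicate 1 close to it. Per1, at 14.3, 7.32 and 4.93 CPM untreated, 12, 7.75 and 27.0 CPM constricted and 15.3 and 33.3 CPM dilated, had the same high libraries (adjusted p = 0.165). Of 14 circadian clock genes none was called (1.17% of all genes tested were), 2 lay above 0 and the median was -0.41. The times of day at which the irises were taken are not given in the sources used here.

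**Figure D3:**
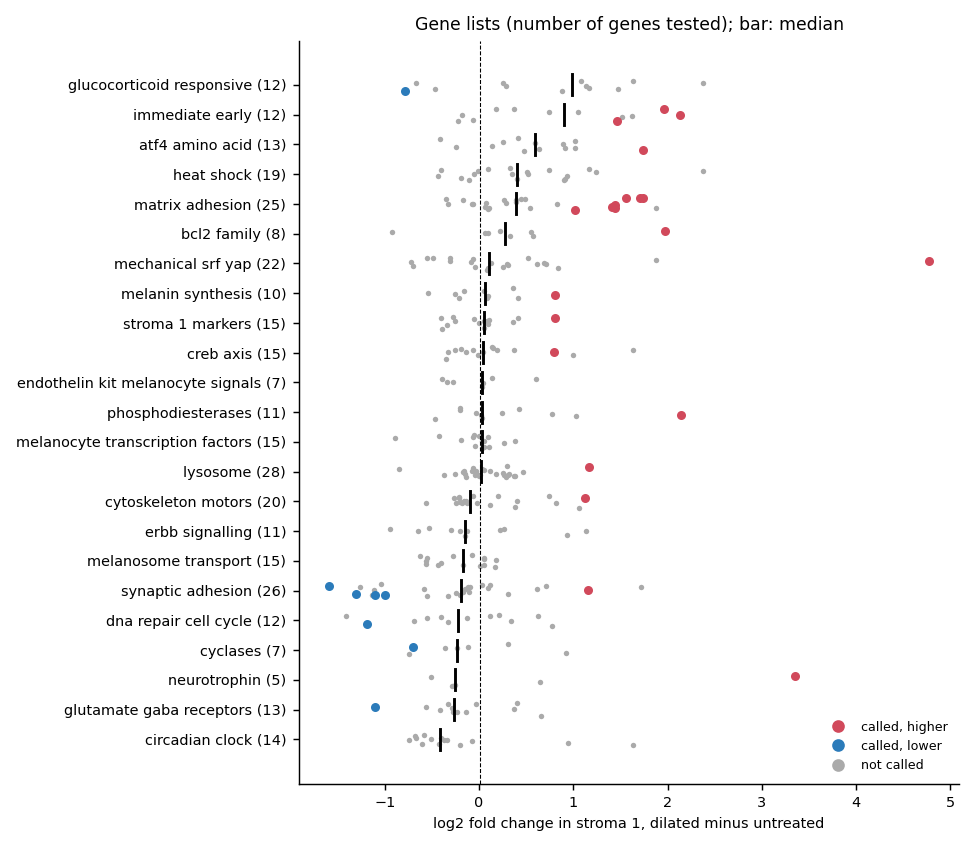
Log2 fold changes of dilated against untreated stroma 1 (horizontal axis) for the genes tested in each list, with the number tested in brackets. Each point is a gene, red where called higher, blue where called lower and grey where not called, the black bar is the median of the list and the dashed line the median of all genes tested (0.01). Matrix and adhesion genes hold 7 red points of 25, and synaptic adhesion genes 4 blue points and 1 red point of 26.

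Of the genes that define melanocytes, 1 was called. None of 15 melanocyte transcription factors was called, among them Mitf (-0.00 ± 0.29, SE), Sox10 (0.05 ± 0.22, SE) and Pax3 (-0.05), and their median log2 fold change was 0.03. Mitf spread widely between untreated libraries, at 3519, 1365 and 1649.5 CPM against 1764 and 2434 CPM dilated. Of 10 genes of melanin synthesis only Slc45a2, a melanosomal transporter, was called, at 343, 302 and 305 CPM untreated and 529 and 559 CPM dilated (0.80 ± 0.17, SE, adjusted p = 0.0256; up to 0.215 without untreated replicate 2 or 3 or either dilated library), while Tyr had 0.08, Dct 0.36 and Tyrp1 0.42. None of 15 melanosome transport genes, 11 genes of ERBB signalling or 7 of endothelin, KIT and other melanocyte signals was called, with medians of -0.17, -0.15 and 0.03. Among 15 genes around CREB, Ppargc1a, a coactivator of mitochondrial genes, was called (479, 384 and 365 CPM untreated, 654 and 732 CPM dilated, 0.79 ± 0.17, SE, adjusted p = 0.0293; up to 0.256 without untreated replicate 2 or 3 or either dilated library), and the median was 0.04. Among 7 cyclase genes the guanylate cyclase Gucy2f fell from 692, 682 and 714 CPM to 431 and 418 CPM (-0.70 ± 0.15, SE, adjusted p = 0.0253), a call lost in the same 4 fits (up to 0.197). No heat shock gene of 19 was called (median 0.40). Since only 1.17% of all genes tested were called, the absence of calls in short lists such as these says little about them.

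The receptors that the drugs act on had few counts in stroma 1. None of 13 adrenergic and muscarinic receptor genes had enough counts to test, and over the 5 libraries Adra1a had 39 UMIs, Adra1b 28, Chrm1 13, Chrm2 35 and Chrm3 59. Adra1a and Chrm3 are expressed in the iris muscles, and their counts in stroma 1 were not corrected for free RNA.

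Constriction gave no call in stroma 1, with 0 of 8911 genes (0%) in edgeR's test, 444 at an unadjusted p under 0.05, and 0 by DESeq2 or limma-voom. For dilation 1188 genes had an unadjusted p under 0.05. Both comparisons use the same untreated libraries. The 70 genes that rose with dilation had a median log2 fold change of 1.24 in that comparison and 0.27 with constriction, and the 34 that fell had -1.13 and -0.28. Among the named genes the log2 fold changes with constriction were 0.83 for Ntrk3, 1.22 for Mettl1, 0.19 for Pde10a, 0.80 for Bcl2l1 and 0.24 for Cd44, and none was called.

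The same libraries allow the change in stroma 1 to be set against that in stroma 2, the other stromal cell type, which expresses Pdgfra and lacks Sox10, and in dilator muscle, the target of phenylephrine. Within stroma 2, 221 of 12788 genes (1.73%) were called for dilation, 172 higher and 49 lower. Within dilator muscle these were 2054 of 15395 (13.3%), 1109 higher and 945 lower. In both, more nuclei were summed than in stroma 1. The difference between the change in stroma 1 and the change in the other cell type was tested in a joint edgeR fit with a term for each library. It was called for 303 of 12620 genes (2.4%) against stroma 2, 88 higher in stroma 1 (0.697%) and 215 lower (1.7%), and for 741 of 13483 genes (5.5%) against dilator muscle, 227 higher (1.68%) and 514 lower (3.81%).

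Of the 70 genes that rose in stroma 1, 68 were tested in stroma 2, 5 of which were also called higher there and none lower, and the difference itself was called for 29 of 70, always with the larger change in stroma 1. In dilator muscle 32 of 68 were called higher and 3 lower, and the difference was called for 30 of 70, of which 24 were larger in stroma 1. Of the 34 genes that fell, 1 of 31 tested in stroma 2 was called lower and none higher, with the difference called for 13, and in dilator muscle 10 of 33 were called lower and 3 higher, with the difference called for 16. The median log2 fold change of the 70 genes was 0.24 in stroma 2 and 0.61 in dilator muscle, and of the 34 genes -0.13 and -0.29. The genes had been chosen by their change in stroma 1, so that smaller values elsewhere are in part built into the choice.

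**Figure D4:**
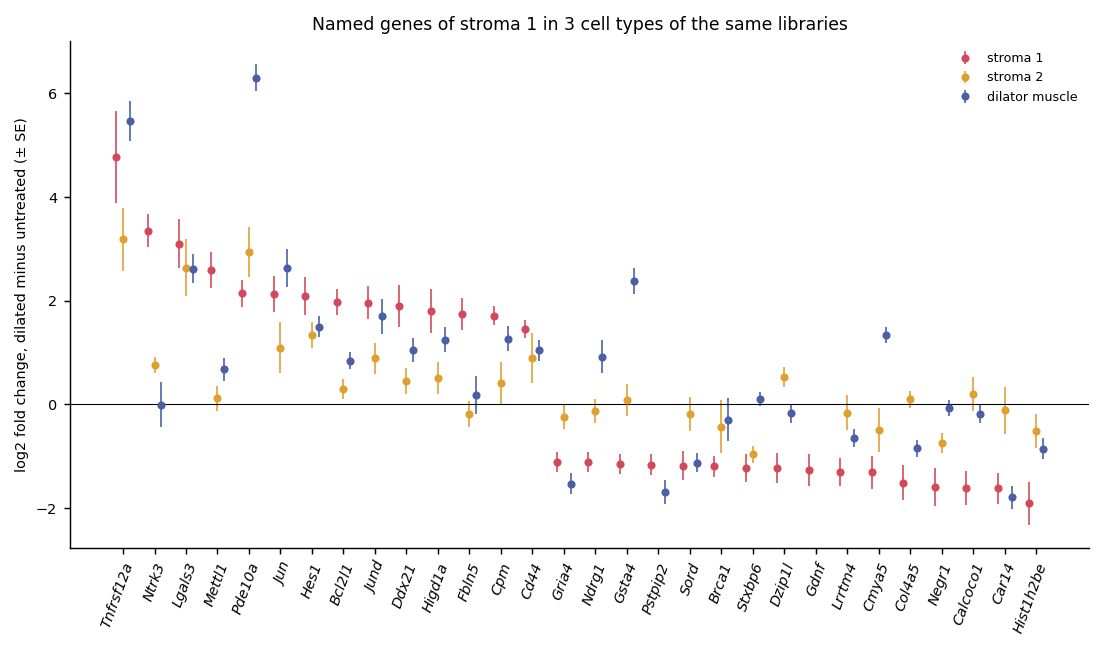
Log2 fold change of dilated against untreated libraries (vertical axis, bars are ± 1 SE) for the 30 named genes of stroma 1, in stroma 1 (red), stroma 2 (yellow) and dilator muscle (blue). A missing point is a gene with too few counts to test in that cell type. Ntrk3 and Mettl1 lie highest in stroma 1, Pde10a in dilator muscle, and Gsta4 and Cmya5 have opposite signs in stroma 1 and dilator muscle.

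The change of Ntrk3 was larger in stroma 1 than in both other cell types. Its mean level was 260.4 ± 5.8 CPM untreated and 427.2 ± 11.2 CPM dilated in stroma 2, a log2 fold change of 0.76 ± 0.15 (SE), against 14 ± 4.4 CPM and 149.8 ± 42.0 CPM in stroma 1 (SD, n = 3 and n = 2). The log2 change was larger in stroma 1 by 2.58 ± 0.31 (SE, adjusted p = 4.21e-06), although the dilated level was still lower than in stroma 2. In dilator muscle Ntrk3 was at 6.2 ± 3.3 CPM and 4.7 ± 1.6 CPM, and the difference was 3.26 ± 0.42 (SE, adjusted p = 4.83e-07). The changes of Mettl1 and Bcl2l1 were also larger in stroma 1 than in both, by 2.45 ± 0.38 and 1.59 ± 0.25 (SE) against stroma 2 and by 1.92 ± 0.34 and 1.11 ± 0.21 (SE) against dilator muscle, with adjusted p values of 0.000471 or less. Fbln5 differed from stroma 2 by 1.93 ± 0.32 (SE, adjusted p = 0.000559) and from dilator muscle by 1.5 ± 0.32 (SE, adjusted p = 0.00164).

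Pde10a rose in all 3 cell types, and by less in stroma 1 than in dilator muscle. Its mean level was higher dilated than untreated in each of the 10 cell types. In pigment epithelium, for example, it was 339.2 against 15.9 CPM, while in ciliary body epithelium the libraries of the groups overlapped. Mean levels went from 153.8 ± 57.0 to 656.9 ± 165.1 CPM in stroma 1, from 35.9 ± 3.9 to 271.5 ± 16.6 CPM in stroma 2 and from 20.3 ± 6.3 to 1321.8 ± 23.3 CPM in dilator muscle. The log2 change was smaller in stroma 1 than in dilator muscle by 4.15 ± 0.24 (SE, adjusted p = 2.3e-16), written as -4.15, and not called different from stroma 2 (-0.75 ± 0.30, SE, adjusted p = 0.248). Cd44 rose in dilator muscle as well (1.04 ± 0.21, SE), and neither difference was called (0.46 ± 0.42 against stroma 2 and 0.35 ± 0.19 against dilator muscle, SE). Neither was that of Tnfrsf12a, Lgals3 or Brca1 against stroma 2, with adjusted p values of 0.644, 0.877 and 0.33.

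Gsta4 moved in opposite directions. It fell from 192.5 ± 19.4 to 87.2 ± 11.1 CPM in stroma 1 and rose from 11.2 ± 1.7 to 52.9 ± 2.8 CPM in dilator muscle (SD, n = 3 and n = 2), a difference of -3.59 ± 0.22 (SE, adjusted p = 1.06e-15). Cmya5, a muscle scaffold protein, fell in stroma 1 and rose in dilator muscle (1.34 ± 0.16, SE), with a difference of -2.73 ± 0.31 (SE, adjusted p = 2.18e-08). Gria4 fell in dilator muscle (-1.53 ± 0.20, SE) as in stroma 1, and the difference was not called (0.44 ± 0.21, SE, adjusted p = 0.27), whereas against stroma 2 it was (-0.88 ± 0.23, SE, adjusted p = 0.038).

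The same UMIs can be given as shares of nuclei with a UMI, which describes the called genes and is not separate support for them. For this each nucleus was thinned to 1000 UMIs, and shallower nuclei, at most 8 in a library, were left out. Pde10a had a UMI in 11.7%, 11.5% and 6.29% of untreated, 8.30%, 13.1% and 11.0% of constricted and 32.9% and 29.0% of dilated stroma 1 nuclei (26.7%, 21.2%, 14.7%, 51.2% and 45.9% without thinning in the untreated and dilated libraries). Ntrk3 had one in 0%, 1.37% and 1.02% of untreated nuclei and 14.5% and 9.96% of dilated nuclei, where 0 of 180 nuclei allows a share of up to 1.67%. The same share of Ntrk3 in dilator muscle, which should lack it, was 0.577% untreated and 0.439% dilated. Bcl2l1 went from 12.2%, 7.62% and 6.97% to 21.3% and 32.9%, and Cd44 from 8.33%, 7.03% and 7.31% to 14.5% and 19.5%. In stroma 2 the share for Cd44 was 0.479% untreated and 0.646% dilated.

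Shares fell for the genes called lower. Gria4 had a UMI in 13.9%, 20.7% and 20.9% of untreated and 8.84% and 7.36% of dilated nuclei, Brca1 in 21.7%, 27.1% and 24.7% and 12.05% and 14.3%, and Ndrg1 in 13.9%, 16.6% and 13.6% and 5.62% and 9.09%. The dilated libraries lay below the untreated ones for each of the 3 genes. At this depth a nucleus that holds a few copies can give 0 UMIs, so that these are shares of nuclei with a UMI and not of nuclei that express the gene.

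**Figure D5:**
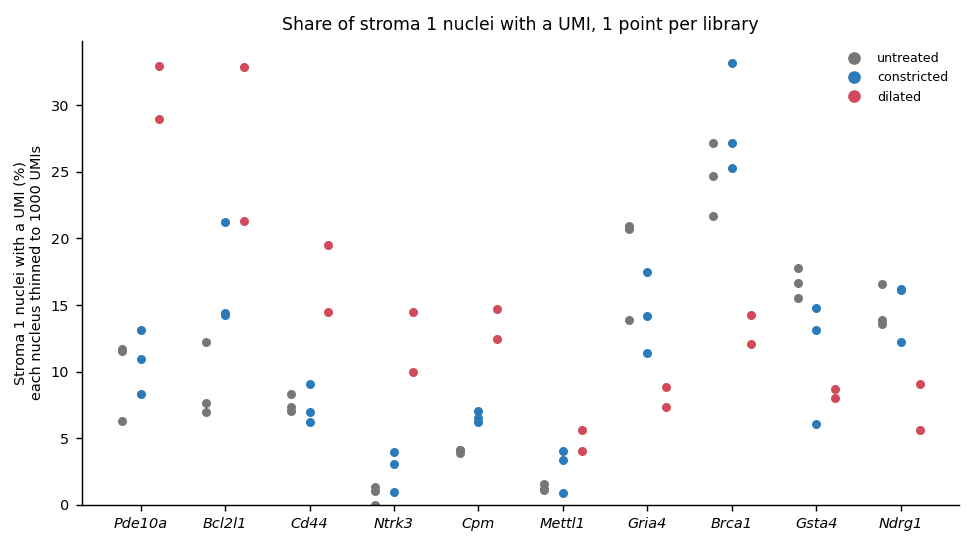
Percent of stroma 1 nuclei with at least 1 UMI of each gene after thinning each nucleus to 1000 UMIs (vertical axis), 1 point per library, with untreated in grey, constricted in blue and dilated in red. For Pde10a the dilated libraries lie at 32.9% and 29.0%, against at most 13.1% in the other 6, and for the other 5 genes that rose they lie above the untreated ones, while they are below them for Gria4, Brca1, Gsta4 and Ndrg1.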

How the data were processed

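Nuclei of mouse iris were profiled by the authors with 10x Genomics Chromium 3' v3 chemistry, in 3 untreated, 3 constricted and 2 dilated libraries that are separate pools of animals. Per the submitters' processing notes and the study's methods, reads were aligned to exons and introns of mm10 with Cell Ranger 3.1.0 and nuclei were clustered with Seurat. Nuclei with over 1% mitochondrial transcripts, or with fewer than 500 or more than 6000 transcripts, had been removed. Stroma 1 nuclei held 507 to 3818 genes and up to 9134 UMIs, so the limits of 500 and 6000 are not on UMIs. The deposited matrices hold UMI counts per gene and nucleus for 22873 genes, without normalization. Mitochondrial transcripts as a percent of the total, and cell type labels, were used as the authors deposited them for each nucleus. In 2707 of 34357 nuclei the UMI sum differed from the deposited total. Barcode sequences were shared between libraries by 400 nuclei, 19 of them in stroma 1. Scrublet (scanpy 1.11.5) called 359 doublets (1.04% of nuclei), 3 in stroma 1, which were kept. Treatments, age and pooling are from the study's methods.

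UMIs were summed over stroma 1 nuclei per library. edgeR 4.0.16 (R 4.3.3) was used with TMM normalization, filterByExpr and the quasi-likelihood test (two-sided), in 1 fit of all 8 libraries with condition as the only term. Benjamini-Hochberg adjustment was made across the 8911 genes tested. A gene was called at an adjusted p under 0.05 and an absolute log2 fold change above 0.6, and the standard error was taken from the fold change and its F value. CPM are UMIs per 1000000 summed UMIs, and the total per library gives the depth, with intervals and limits from counting error at 95%, where a count of 0 allows 3. Differences between cell types were tested in a joint fit with a term for each library. Shares and medians were compared by two-sided exact permutation over the libraries. The fits were tested on simulated data with known changes.

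Named genes are those called with at least 30 UMIs and no overlap between groups, the 12 with the largest fold change in each direction and the 6 with the lowest p in each direction, which gives 30 genes, with unnamed gene models given only by count. For the difference between cell types they are the 5 largest in each direction among those called with at least 30 UMIs in stroma 1. Called genes of a list and the defining genes of a list may also be named. The members, the 32 gene lists (623 genes) and these rules were chosen with earlier results of these data known, and the ribosomal protein list after values had been seen. Positions are from GENCODE vM21 (mm10) and promoters from RefSeq (GRCm38.p6). Alternatives were RLE size factors, other filters, DESeq2 1.42.0, limma-voom (limma 3.58.1), only the 2 groups compared, terms for library number series (in 3 series, and in 2 as a choice made after seeing the data) or replicate number, nuclei with Sox10 or Pax3, no doublets, and each library left out in turn. Nuclei of 1 library are not replicates, and genes with no row in the matrices were not analysed here. A few genes that fall under these rules are not reported here.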

Additional observations from a re-analysis of the deposited data

Results flagged for a closer look

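The results listed here are those for which the change with dilation differed between stroma 1 and another cell type of the same libraries, by a test of that difference. Against stroma 2 this held for 303 of 12620 genes and against dilator muscle for 741 of 13483 genes. Values are the log2 change in stroma 1 minus that in the other cell type.

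The largest positive differences from stroma 2 were those of Creb5 (4.78), Trub1 (3.02), Ntrk3 (2.58), Tbc1d9 (2.56) and Mettl1 (2.45). Creb5, a transcription factor of the CREB family, was at 1.79, 1.46 and 2.46 CPM untreated and 54.3 and 11.7 CPM dilated in stroma 1, so that it rested mostly on dilated replicate 1, and it had too few counts to be tested within stroma 1 alone. Trub1, a pseudouridine synthase, was at 3.59, 4.39 and 3.70 CPM untreated and 26.4 and 13.3 CPM dilated and was not called within stroma 1 (adjusted p = 0.0694), nor was Tbc1d9 (adjusted p = 0.0837).

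The largest negative differences from stroma 2 were those of Lims2 (-4.08), Actn2 (-3.74), Ptger4 (-3.49), Tnfrsf11b (-3.48) and Gdnf (-3.42). Actn2, the alpha-actinin of Z-discs, was at 33.8, 26.6 and 21.2 CPM untreated and 219 and 153 CPM dilated in stroma 2 and at 12.6, 12.4 and 22.2 CPM and 15.3 and 3.33 CPM in stroma 1, where it was not called. Ptger4, a prostaglandin E2 receptor, was at 12.6, 14.6 and 11.7 CPM untreated and 1.39 and 3.33 CPM dilated in stroma 1, and at 14.5, 16.9 and 13 CPM and 25.3 and 32.1 CPM in stroma 2. Lims2, Ptger4 and Tnfrsf11b had too few counts to be tested within stroma 1. Lims2 was near the floor in stroma 2, at 0, 0.313 and 0.566 CPM untreated and 7.55 and 2.34 CPM dilated. In stroma 1 it had 3 and 4 UMIs in the dilated libraries. Gdnf in stroma 2 was at 1.21, 1.56 and 1.13 CPM untreated and 8.89 and 1.75 CPM dilated, so that its higher level there rested on dilated replicate 1.

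Against dilator muscle the largest positive differences were those of Ntrk3 (3.26), Nav3 (2.78), Creb5 (2.56), Xrra1 (2.53) and L1cam (2.37). Nav3, a guidance protein of growing axons, rose in stroma 1 from 25.1, 22.0 and 29.0 CPM to 52.9 and 78.4 CPM (edgeR adjusted p = 0.0209) and fell in dilator muscle from 401, 424 and 413 CPM to 149 and 115 CPM. Xrra1 fell in dilator muscle from 22.4, 23.5 and 22.0 CPM to 4.15 and 3.81 CPM, and in stroma 1 was at 26.9, 22.7 and 26.5 CPM and 29.2 and 30.0 CPM.

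The largest negative differences from dilator muscle were those of Hk2 (-5.45), Cdkn1a (-4.49), Nr4a3 (-4.19), Pde10a (-4.15) and Nr4a2 (-4.08). Hk2, a hexokinase, went from 0.623, 0.281 and 0.633 CPM to 32.2 and 39.3 CPM in dilator muscle, and was at 26.9, 33.7 and 40.7 CPM untreated and 45.9 and 91.7 CPM dilated in stroma 1, where it was not called. Nr4a3 and Nr4a2, orphan nuclear receptors of the immediate early response, were not called in stroma 1 either (adjusted p = 0.148 and 0.822). In dilator muscle both were far higher in dilated replicate 2, with 3.06 and 44.9 CPM of Nr4a3 and 11.1 and 110.4 CPM of Nr4a2 in the dilated libraries. Cdkn1a, an inhibitor of the cell cycle, had few counts in dilator muscle, at 0, 0.704 and 0.316 CPM untreated and 5.92 and 11.4 CPM dilated, and too few in stroma 1 to be tested there.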

How the results depend on the processing

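The 104 calls for dilation became 390 with a term for library number in 3 series, 250 in 2, 246 with no filter on low counts, 190 with only dilated and untreated libraries and 170 with limma-voom, and 18 to 130 with 1 library left out. They were 103 with RLE size factors, 105 with a mean of at least 10 UMIs, 77 with DESeq2 (70 of them among the 104), and 103 each without doublets and with only nuclei that had Sox10 or Pax3. Constriction, with 0 calls, gave 6 with the term in 3 series, 4 in 2 and 11 with no filter. With 1 library left out, 81 to 304 genes differed between stroma 1 and stroma 2 (303 with all) and 390 to 741 between stroma 1 and dilator muscle (741 with all). The cause was not tested. Deviations of libraries with the same replicate number had correlations over 3118 genes from -0.09 to 0.35. Among the replicate 1 libraries these were 0.06, 0.19 and 0.35. No values for libraries of different numbers are set beside them, so whether the numbers pair the libraries cannot be told from these correlations. A replicate block gave 146 calls, 98 higher and 48 lower, of which 85 were among the 104. The difference of median UMIs per nucleus (-151.25) ranged from -313 (without dilated replicate 1) to 10.5 (without dilated replicate 2), with 2.75 without untreated replicate 1. Of 815 values of 51 genes under alternatives, 659 kept their direction and their side of the threshold, 141 were no longer called, 9 were newly called and 6 changed sign, all for genes not called. These were Mitf (0.018 with the term in 3 series, 0.0067 in 2, 0.11 with limma-voom, 0.27 without dilated replicate 1 and 0.48 without untreated replicate 1) and Sox10 (-0.31 without dilated replicate 2). The difference in the share of nuclei with a Sox10 UMI was -2.42 percentage points and 0.83 after thinning. With 2 dilated libraries, of 718677 and 599778 UMIs, small changes of genes with few UMIs were not detectable.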
